A study of Mus musculus with 2 samples.

Results

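Oxidative phosphorylation genes were followed in single-cell RNA sequencing of cultured mouse bone marrow. Members were all genes whose symbol begins with Nduf, Uqcr, Cox4 to Cox8, Atp5 or mt-, together with Sdha to Sdhd, that held at least 100 unique molecular identifiers (UMIs, 1 for each captured transcript) over both libraries. Of 133 matching symbols 104 passed, among 11804 genes with as many UMIs and 47729 genes in the files. They comprised 89 nuclear genes and 15 genes of the mitochondrial genome, which carry the prefix mt-. Below the minimum were 7 nuclear symbols (Cox7b2, Cox8b and Cox8c at 0, and 4 pseudogenes with at most 31 UMIs), mt-Nd3 with 18 UMIs, and 21 transfer RNA genes with at most 45. Just inside it stood Ndufa4l2 with 170 UMIs, mt-Tt with 174, mt-Nd4l with 211, mt-Co3 with 227 and Cox4i2 with 250.

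Both cultures were femoral bone marrow of C57BL/6NCrljOri, H-2b mice kept for 5 days with GM-CSF, the granulocyte-macrophage growth factor, at 40 ng/mL. The coculture library held CD11bmidLy6Cmid cells from marrow grown beneath culture inserts with human mesenchymal stromal cells (MSC), with DMEM named as the medium. The library without coculture held CD11bhiLy6Chi cells from marrow grown alone, with RPMI1640 named. There was 1 library per group and the number of mice is not given in the sources used here, so gate, coculture, medium and library cannot be told apart, no test was possible, and the 95% intervals below cover counting error only.

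Oxidative phosphorylation takes place in the inner mitochondrial membrane. Complexes I and II pass electrons from NADH and succinate to ubiquinone, complex III passes them to cytochrome c, complex IV to oxygen, and ATP synthase uses the proton gradient built by complexes I, III and IV. Most subunits are encoded in the nucleus and imported, whereas the mitochondrial genome encodes a small hydrophobic set, transcribed as long polycistronic RNAs and cut into single transcripts, along with its own ribosomal and transfer RNAs. Complex II has no subunit encoded there. Mature neutrophils are known for few mitochondria and a reliance on glycolysis.

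The coculture library held 3134 barcodes and 29217182 UMIs, and the library without coculture 2180 barcodes and 28294186 UMIs. Kept were barcodes with 500 genes or more of which mt- genes took no more than 10% of UMIs, 3005 in the coculture (median 6031 UMIs) and 1817 without (median 7016 UMIs). The 2 libraries shared 2 kept barcodes. Their cell makeup differed: eosinophil-like cells held 29.5% of the UMIs of the coculture, and macrophage-like cells 65.1% of those without coculture. Values over all kept cells are therefore sums over different mixtures. B lineage-like cells were 30.3% of the kept coculture cells and T or NK cell-like cells 3.23%, although the sort was on CD11b and Ly6C.

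Nuclear members took 2.35% of UMIs in the coculture, against 2.02% without coculture, a log2 ratio of 0.22 (95% interval 0.21 to 0.22). The mt- members took 1.403% in the coculture, against 2.65% without, a log2 ratio of -0.91 (-0.92 to -0.91). The nuclear and mitochondrial sums thus lay on opposite sides. The nuclear difference depended on the scaling, with log2 ratios of 0.076 under edgeR's TMM factors and 0.094 under DESeq2's size factors, while the median of all measured genes was at 0.03 by library total, -0.11 by TMM and -0.10 by DESeq2. The mt- ratio was -0.52 when macrophage-like and eosinophil-like cells were left out.

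Of the 89 nuclear members 84 reached 10 CPM (counts per 1000000 UMIs of the library or class) in at least 1 library and are called measured. Of these 7 were at least 1.5-fold higher in the coculture (8.33%), against a background of 23.0% among all 8668 measured genes, and 1 was at least 1.5-fold lower (1.19%), against 21.8%. Most nuclear members thus differed little: 76 lay between these folds, with 65 above a log2 ratio of 0 and 19 below. Their median was 0.20 and that of all measured genes 0.03. By TMM 53 lay above 0 and 31 below. The 5 nuclear members under 10 CPM were Atp5s, Cox4i2, Cox7a1, Ndufa4l2 and Ndufaf5.

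**Figure D1:**
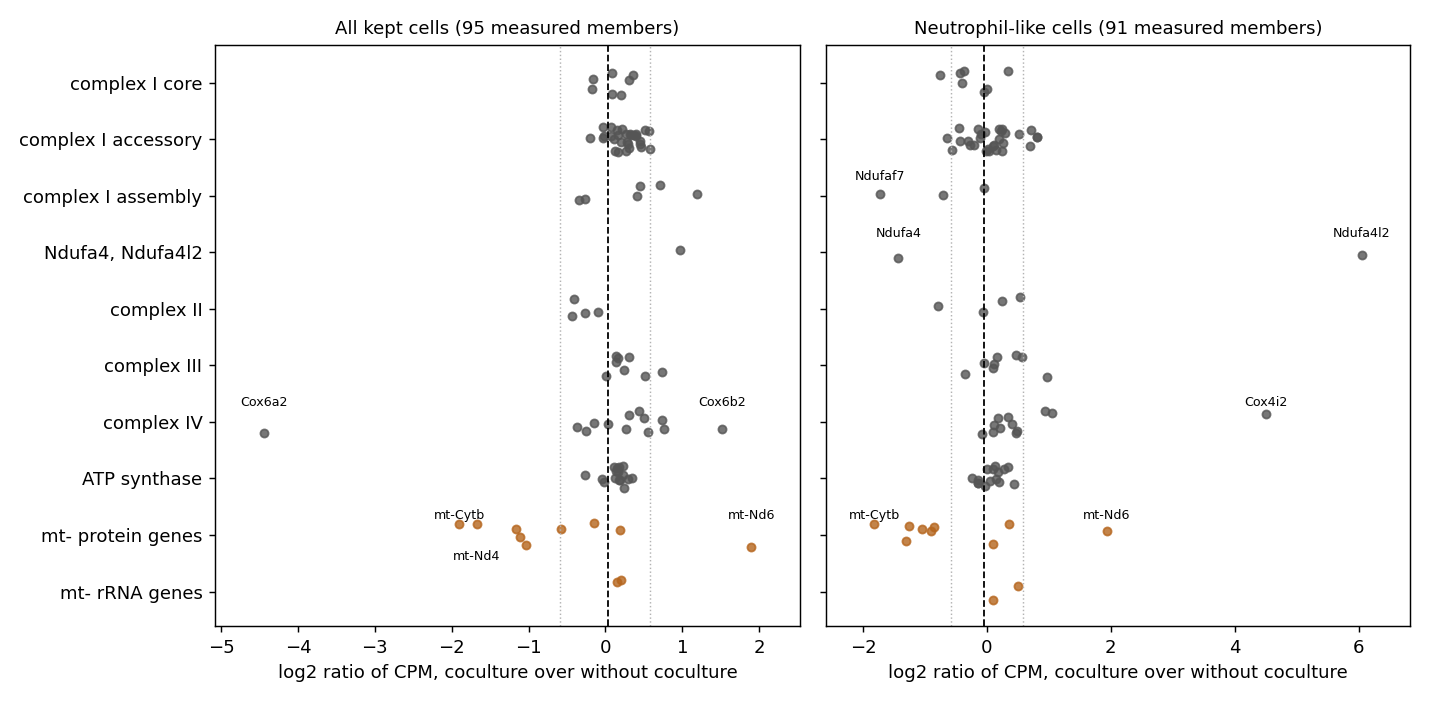
Log2 ratio of CPM (coculture over without coculture) of each measured member, 1 point a gene, by role, for all kept cells at left and neutrophil-like cells at right; vertical scatter has no meaning. Dashed lines mark the median of all measured genes (0.03 and -0.04), dotted lines a fold of 1.5. Most nuclear members (grey) crowd near the median, but the points farthest out are nuclear, Cox6a2 at -4.44 at left and Ndufa4l2 at 6.05 at right. At left mt- protein genes (brown) spread to -1.90 for mt-Cytb and 1.90 for mt-Nd6.

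Promoters of nuclear members were read for short motifs of factors known to control respiratory genes: GCATGCGC for NRF1, CCGGAAG for ETS factors such as GABPA, AAGATGGCG for YY1 and CCAAT for NFY. Windows ran from 250 bases before to 50 bases after the gene start (RefSeq, GRCm38.p6), both strands were searched, and 74 of 89 members had an entry. The NRF1 letters stood in 12 of 74 windows (16.2%), against 3.61% of all 17492 windows of this length. For YY1 there were 7 windows (9.46%), against 1.94%. For ETS there were 16 (21.6%), against 11.9%, and for NFY 33 (44.6%), against 39.0%. GCGCATGCGC holds the NRF1 letters once on each strand, overlapping, and was counted as 1 window. A match describes the letters only and is not a binding site.

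Below are 4 windows, 5′ to 3′, picked to show each kind of match in complexes I, II and IV, with NRF1, ETS and YY1 letters in capitals on whichever strand they lie. Ndufa6 at chr15:82354242-82354541 (minus strand), an accessory subunit of complex I, has 1 NRF1 match. Sdhb at chr4:140961021-140961320 (plus strand), the iron-sulfur subunit of complex II, has NRF1 and ETS matches. Cox6a1 at chr5:115348909-115349208 (minus strand), a complex IV subunit, has an overlapping NRF1 pair and an ETS match. Ndufs7 at chr10:80249199-80249498 (plus strand), a complex I core subunit, has a YY1 match.
Ndufa6: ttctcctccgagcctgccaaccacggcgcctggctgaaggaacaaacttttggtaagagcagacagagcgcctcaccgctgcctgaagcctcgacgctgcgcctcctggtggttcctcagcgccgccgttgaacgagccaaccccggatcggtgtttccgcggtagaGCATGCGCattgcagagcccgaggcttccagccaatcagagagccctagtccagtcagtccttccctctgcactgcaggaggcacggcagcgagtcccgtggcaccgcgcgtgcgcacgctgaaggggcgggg
Sdhb: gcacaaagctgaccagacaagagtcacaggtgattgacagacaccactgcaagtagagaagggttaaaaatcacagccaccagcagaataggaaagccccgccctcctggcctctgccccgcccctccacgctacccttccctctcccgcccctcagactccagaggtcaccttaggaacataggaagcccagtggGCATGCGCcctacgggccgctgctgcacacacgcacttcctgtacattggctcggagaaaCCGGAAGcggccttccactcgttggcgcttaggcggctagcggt
Cox6a1: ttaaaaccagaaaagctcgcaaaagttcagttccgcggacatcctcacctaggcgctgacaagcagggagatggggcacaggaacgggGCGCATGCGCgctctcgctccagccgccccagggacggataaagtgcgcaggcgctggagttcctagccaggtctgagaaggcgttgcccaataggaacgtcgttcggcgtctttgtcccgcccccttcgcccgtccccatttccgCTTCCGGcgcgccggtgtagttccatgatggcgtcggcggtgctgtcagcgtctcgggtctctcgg
Ndufs7: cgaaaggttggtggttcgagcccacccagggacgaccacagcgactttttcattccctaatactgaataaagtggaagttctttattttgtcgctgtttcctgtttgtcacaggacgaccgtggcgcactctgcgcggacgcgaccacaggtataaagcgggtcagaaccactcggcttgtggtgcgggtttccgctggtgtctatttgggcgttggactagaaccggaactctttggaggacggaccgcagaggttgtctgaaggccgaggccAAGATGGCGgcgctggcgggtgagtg
The log2 ratios of these genes were 0.46 for Ndufa6, -0.10 for Sdhb, 0.26 for Cox6a1 and 0.20 for Ndufs7, so genes with these letters lay on both sides of 0.

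Complex I, the NADH dehydrogenase, stayed close to the median of all genes. Its 7 nuclear core subunits, which carry the flavin and iron-sulfur centres, summed to 692 CPM in the coculture and 640 CPM without, a log2 ratio of 0.11, which was -0.03 under TMM and -0.01 under DESeq2. The highest ratio among them was that of Ndufs8, with 86.5 CPM in the coculture and 67.3 CPM without (0.36). None of the 29 accessory subunits reached a fold of 1.5, and 25 lay above 0, with a summed log2 ratio of 0.25, which was 0.11 under TMM. Ndufb11 and Ndufa12 were the 2 highest of them. Ndufb11, a membrane-arm subunit, had 301 CPM in the coculture and 202 CPM without (0.57). Ndufa12 had 52.2 CPM in the coculture and 35.3 CPM without (0.57). The lowest was Ndufa10 with 90.8 CPM in the coculture and 105 CPM without (-0.20).

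Assembly factors of complex I, which help build it and are not part of the finished enzyme, spread more widely. Ndufaf6 had 12.5 CPM in the coculture and 5.47 CPM without (log2 ratio 1.19, interval 0.91 to 1.47). Ndufaf3 had 55.6 CPM in the coculture and 33.9 CPM without (0.71). Both were past 1.5-fold, while Ndufaf7, a methyltransferase acting on a core subunit, and Ndufaf4 lay below 0 without reaching that fold. Ndufaf7 had 12.9 CPM in the coculture and 16.4 CPM without (-0.35). Ndufaf4 had 22.6 CPM in the coculture and 27.2 CPM without (-0.27).

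Complex II, succinate dehydrogenase, which also works in the citric acid cycle, was the one complex whose nuclear members all lay below 0. The 4 genes summed to 368 CPM in the coculture and 457 CPM without, a log2 ratio of -0.31 (-0.35 to -0.28). Sdhd, a membrane anchor, had 116 CPM in the coculture and 158 CPM without (-0.44). Sdhc, the other anchor, had 71.4 CPM in the coculture and 94.8 CPM without (-0.41). The flavoprotein Sdha stood at -0.27 and the iron-sulfur subunit Sdhb at -0.10, and none of the 4 reached 1.5-fold. The class named macrophage-like, found only in the library without coculture, had the highest summed level of any class with at least 50 cells, 515 CPM. Cluster 12, unnamed and with cells of both libraries, also had the macrophage marker C1qa among its leading genes.

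Complex III, cytochrome bc1, had all 8 nuclear members above 0 by library total, from Uqcr11 at 0.01 to Uqcrc2 at 0.74, with a sum of 2913 CPM in the coculture and 2357 CPM without (log2 ratio 0.31, and 0.16 under TMM). Uqcrc2, a core protein, was the only one past 1.5-fold, at 152 CPM in the coculture and 90.7 CPM without. Uqcrh, the hinge protein, had 961 CPM in the coculture and 672 CPM without (0.52). The Rieske protein gene Uqcrfs1 had 204 CPM in the coculture and 185 CPM without (0.14).

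Complex IV, cytochrome c oxidase, held the extremes among nuclear members. Ndufa4, now placed in this complex, is given apart further down and is left out of the sum and counts here. The sum was 7172 CPM in the coculture and 6234 CPM without (0.20). Past a fold of 1.5 were 3 of the 13 measured complex IV genes upward and 1 downward. Over all measured genes these shares were 23.0% and 21.8%, so the upward share of complex IV was near the background. Of subunits found in most tissues, Cox7c had 738 CPM in the coculture and 436 CPM without (0.76). Cox7a2 had 545 CPM in the coculture and 326 CPM without (0.74). Part of the last 400 transcript bases of Cox7c (33.6% of 90-base stretches) also occurs in other annotated genes, so reads there could be shared. Cox5a at -0.15 and Cox4i1 at -0.25 lay on the other side.

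Isoforms of complex IV known from restricted tissues had the largest ratios in either direction. Cox6b2, known as a testis isoform, had 55.5 CPM in the coculture and 19.4 CPM without (log2 ratio 1.51, 1.37 to 1.66), whereas its partner Cox6b1 had 549 CPM in the coculture and 536 CPM without (0.03). Cox6a2, the heart and muscle isoform, had 0.62 CPM (18 UMIs) in the coculture and 13.5 CPM (374 UMIs) without, a log2 ratio of -4.44 (-5.21 to -3.76). Its partner Cox6a1 had 425 CPM in the coculture and 354 CPM without (0.26). The cells that held these UMIs differed between the libraries. Of the Cox6b2 UMIs in the coculture 51.2% lay in eosinophil-like cells, which held 29.5% of all its UMIs, and of those without coculture 89.4% lay in macrophage-like cells, which held 65.1%. Of the Cox6a2 UMIs without coculture 50.5% lay in macrophage-like cells, below their 65.1% of all UMIs, and 42.0% in cluster 12, an unnamed cluster of both libraries led by Igha, Asgr2, C1qa, Jchain and Ptx3. Within cluster 12 Cox6a2 had 1.23 CPM in the coculture and 53.8 CPM without. Whether that cluster held like cells in both libraries was not tested. Cox6a2 is also in the marker set used here for plasmacytoid dendritic cells, to which no cluster was assigned.

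The remaining families showed smaller or sparser differences. Cox4i2, known as a lung isoform that responds to low oxygen, had 8.22 CPM (239 UMIs in 124 cells) in the coculture and 0.36 CPM (10 UMIs in 10 cells) without, a log2 ratio of 4.51 (3.61 to 5.59), while Cox4i1 had 1068 CPM in the coculture and 1272 CPM without. Cox7a1, the muscle isoform, had 5.02 CPM in the coculture and 5.69 CPM without (-0.18, -0.51 to 0.15). Cox7a2l, which takes part in joining complexes III and IV into supercomplexes, had 495 CPM in the coculture and 638 CPM without (-0.37). Cox8a had 1210 CPM in the coculture and 890 CPM without (0.44), and the isoforms Cox8b and Cox8c were at 0 in both libraries.

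Ndufa4, once listed in complex I and now placed in complex IV, had 500.5 CPM in the coculture and 255 CPM without, a log2 ratio of 0.97 (0.93 to 1.01). Its paralog Ndufa4l2, known from other cells as a target of hypoxia-inducible factor, had 3.92 CPM in the coculture and 2.02 CPM without. Few cells carried it, with 114 UMIs in 22 cells of the coculture and 56 UMIs in 7 cells without. Of those in the coculture 45.6% lay in neutrophil-like cells and 28.1% in the 9 stromal or endothelial cell-like cells, and 96.4% of those without coculture lay in macrophage-like cells.

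ATP synthase had log2 ratios of its 16 measured genes between -0.26 and 0.35 and none past 1.5-fold. Its sum was 5785 CPM in the coculture and 5162 CPM without (0.16, and 0.02 under TMM). Atp5b, the catalytic beta subunit, had 493 CPM in the coculture and 418 CPM without (0.24), and the alpha subunit gene Atp5a1 had 397 CPM in the coculture and 402 CPM without (-0.02). The genes for the c-ring peptide differed in sign: Atp5g1 had 368 CPM in the coculture and 289 CPM without (0.35), and Atp5g3 had 228 CPM in the coculture and 273 CPM without (-0.26). Atp5g2 stood near 10 CPM in both libraries (0.19, -0.05 to 0.43). Atp5s, at 9.11 CPM in the coculture and 2.74 CPM without, is listed by RefSeq as Dmac2l. Atp5sl, among the 16 measured genes, is listed there as Dmac2. Both are counted with ATP synthase here by their symbols only.

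Mitochondrial protein genes as a sum stood far below, at 0.871% of UMIs in the coculture and 2.18% without (log2 ratio -1.32). The barcode filter caps these levels. By contrast the 2 ribosomal RNA genes stood at 0.532% in the coculture and 0.464% without (0.20). Among the 11 measured mt- genes 5 were at least 1.5-fold lower (45.5%) and 1 higher (9.09%), and the same background shares over all genes, 21.8% and 23.0%, apply. The mt- members are carried on 1 small genome but differed by unequal folds.

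mt-Cytb, the only complex III subunit encoded there, had 2183 CPM in the coculture and 8144 CPM without, a log2 ratio of -1.90 (-1.91 to -1.89). Among the complex I genes, mt-Nd4 had 1437 CPM in the coculture and 4583 CPM without (-1.67). The next, mt-Nd2, had 1366 CPM in the coculture and 3069 CPM without (-1.17). These lay well below the level without coculture, as did mt-Nd1 with 2229 CPM in the coculture and 4556 CPM without (-1.03). By contrast mt-Nd5 had 406 CPM in the coculture and 450.3 CPM without (-0.15). Of the ATP synthase genes mt-Atp6 had 20.2 CPM in the coculture and 43.5 CPM without (-1.10), and mt-Atp8 had 55.8 CPM in the coculture and 83.4 CPM without (-0.58).

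A few mt- genes stood higher in the coculture. mt-Nd6, the one protein gene on the other strand of the mitochondrial genome, had 42.3 CPM in the coculture and 11.4 CPM without, a log2 ratio of 1.90 (1.72 to 2.08). Whether the counting used strand is not given in the sources used here, so reads from the opposite strand cannot be told apart from mt-Nd6. The complex IV gene mt-Co1 had 965 CPM in the coculture and 849 CPM without (0.18), mt-Rnr1 of the small ribosomal subunit 883 CPM in the coculture and 794 CPM without (0.15), and mt-Rnr2 of the large one 4434 CPM in the coculture and 3848 CPM without (0.20). Under each of the 3 scalings 4 of the 11 measured mt- genes lay above 0 and 7 below, and by TMM the rRNA sum had a log2 ratio of 0.05. The mt- members under 10 CPM in both libraries were mt-Co2, mt-Co3, mt-Nd4l and the transfer RNA gene mt-Tt.

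**Figure D2:**
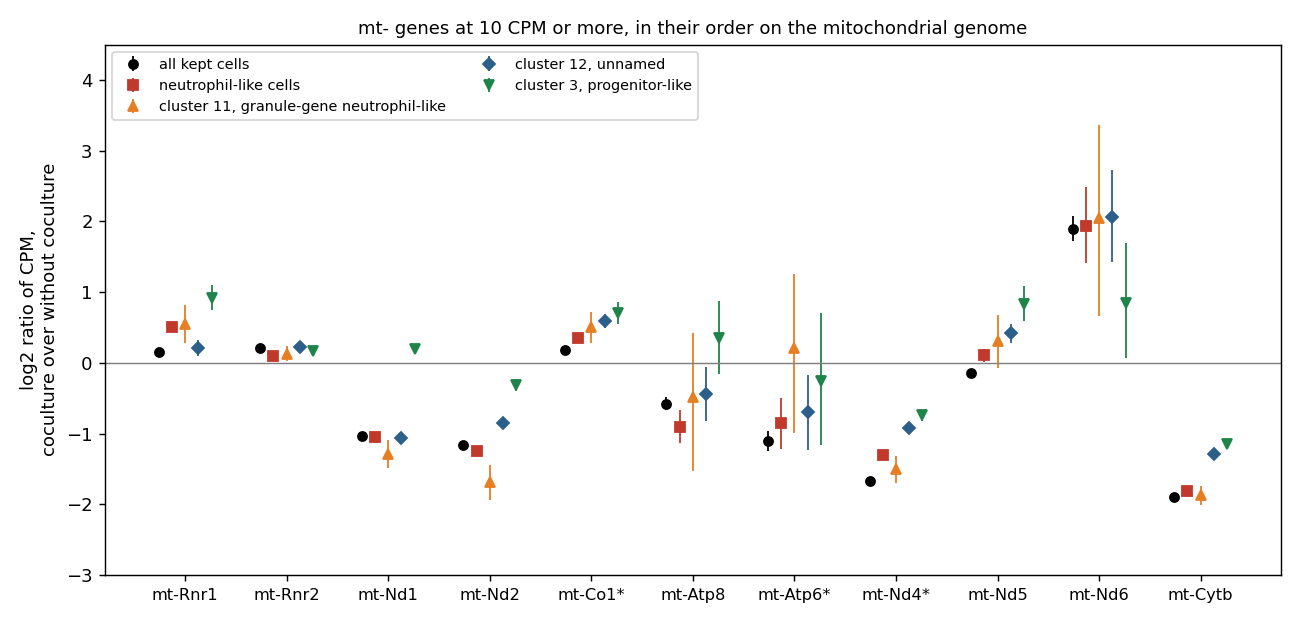
Log2 ratio of CPM (coculture over without coculture) for mt- genes in map order, with 95% counting intervals. Sets are all kept cells, neutrophil-like cells and the 3 clusters with 27 or more cells of each library. Stars mark mt-Co1, mt-Atp6 and mt-Nd4, which share 33.4% or more of their 90-base stretches with nuclear copies. mt-Cytb lies below 0 and mt-Nd6 above 0 in each set, whereas mt-Nd1 lies below 0 in each set but cluster 3.

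Some mt- levels are uncertain because the nuclear genome carries near-identical copies. Of the 90-base stretches of the transcript, 99.5% of mt-Atp6, 99.5% of mt-Co2, 99.9% of mt-Co3, 98.6% of mt-Nd4l and 97.7% of mt-Nd3 occurred exactly in another annotated gene. For mt-Nd4 the share was 61.1%, with none in its last 400 bases, and for mt-Co1 33.4%, with 100% of its last 400 bases. mt-Nd1, mt-Cytb, mt-Nd6, mt-Atp8, mt-Rnr1 and mt-Rnr2 shared none, so the largest ratios, of mt-Cytb and mt-Nd6, rest on stretches without such a copy. The copy of mt-Nd3, Gm28438 on chromosome 1 (24612775 to 24613119, minus strand), had 149 CPM in the coculture and 647 CPM without, where mt-Nd3 itself had 1 UMI in the coculture and 16 UMIs without. Counts of such copies are not in the mt- sums. Among nuclear members 16 shared a stretch of their last 400 bases with another annotated gene, the highest shares being 70.7% for Atp5l, 47.3% for Ndufs3, 45.7% for Atp5g2 and 43.6% for Atp5h, so their levels are uncertain too.

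The mt- level is also bounded by the barcode filter, which removed more barcodes from one library. Over 10% mt- UMIs were 90 of 3134 barcodes in the coculture (2.87%, exact binomial 95% interval 2.32% to 3.52%) and 338 of 2180 without (15.5%, 14.0% to 17.1%). Among barcodes with at least 500 genes the median mt- share before the cap was 1.53% in the coculture and 2.61% without. The sums differed in the same direction at every cap tried, with log2 ratios of -0.90 at 5%, -0.95 at 20% and -1.01 with no cap. Malat1, a nuclear-retained RNA often read as a sign of cell quality, had 11777 CPM in the coculture and 8249 CPM without, and its part in these results was not tested.

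**Figure D3:**
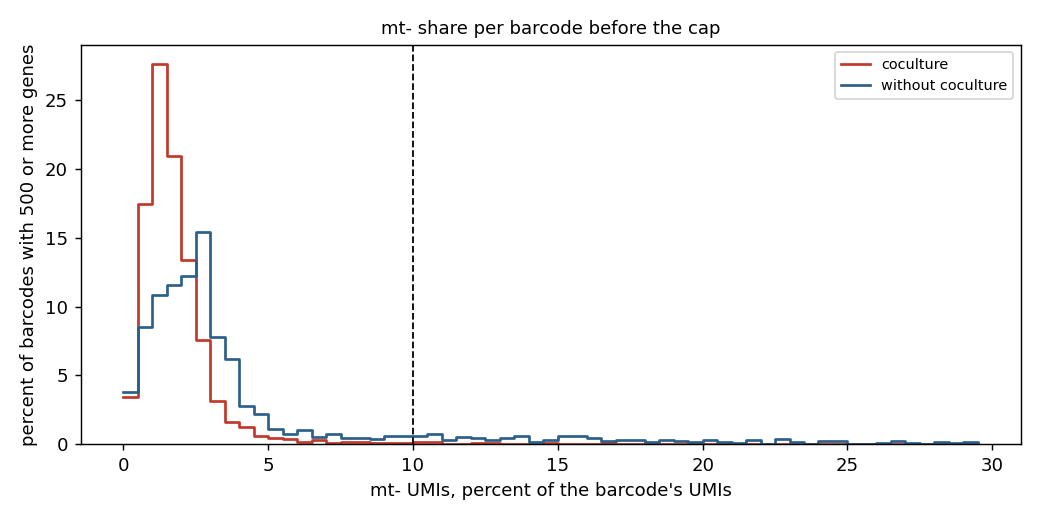
Share of mt- UMIs per barcode for barcodes with at least 500 genes, in steps of 0.5 percentage points, as a percent of such barcodes in each library; the dashed line is the cap of 10%. The coculture has its median at 1.53% and the library without coculture at 2.61%, with a longer tail past the cap.

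Nuclear members varied by cell class more than they did between the libraries as wholes. In the coculture the summed nuclear level was 3.28% of UMIs in granulocyte-monocyte progenitor-like cells and 2.79% in eosinophil-like cells. It was 2.47% in megakaryocyte or platelet-like cells, 2.12% in basophil or mast cell-like cells and 2.11% in cluster 12. Below them came mature dendritic cell-like cells at 2.04%, B lineage-like cells at 1.94% and T or NK cell-like cells at 1.85%, with neutrophil-like cells lowest at 1.75%. Without coculture macrophage-like cells had 2.17%, cluster 12 had 2.11% and neutrophil-like cells 1.49%. Basophil or mast cell-like cells and cluster 12 of the coculture did not differ beyond their counting intervals (2.10% to 2.13% and 2.09% to 2.14%). Over all 12 class sums of at least 50 cells, the nuclear level was higher where the median UMIs of the class were higher (Pearson r = 0.664, n = 12, Spearman rho 0.790), and the classes share libraries and depth, so this is a description.

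**Figure D4:**
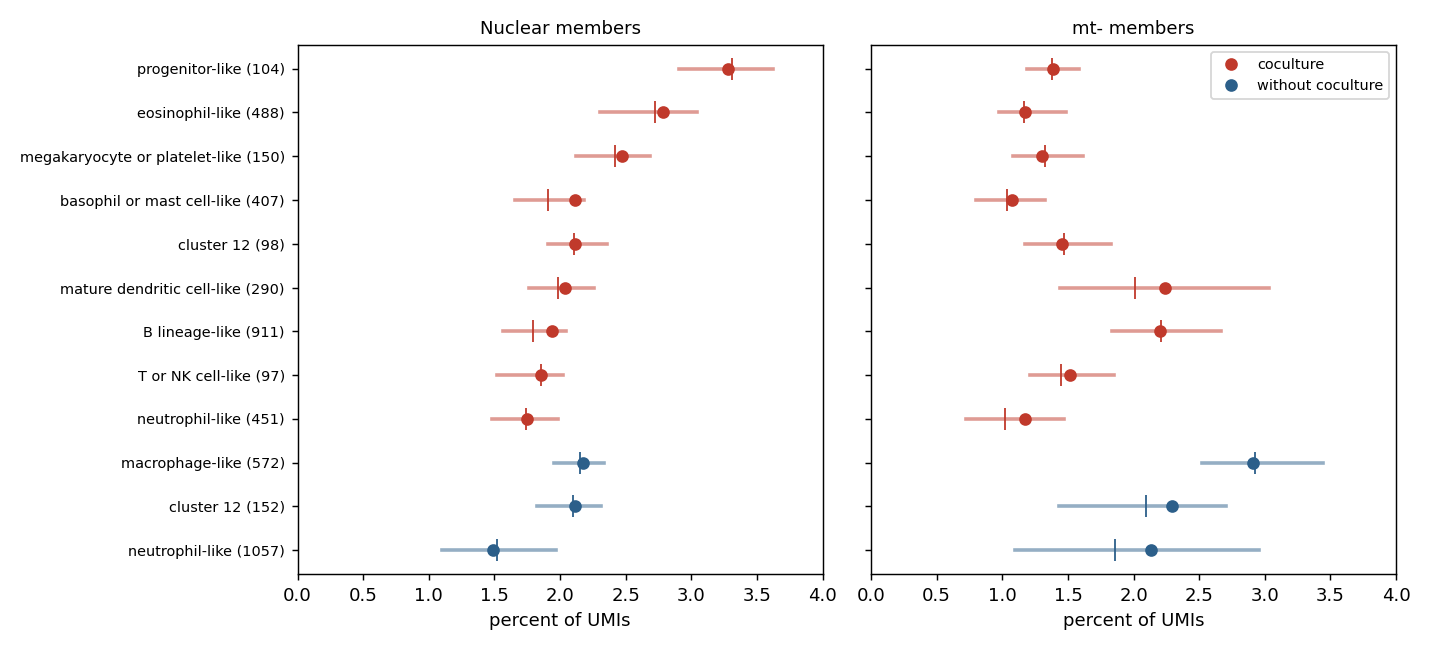
Percent of UMIs taken by nuclear members (left) and mt- members (right) in each class with at least 50 cells, with cell numbers in parentheses. Dots are class sums, ticks the median over cells and bars the middle quartiles over cells, which are not replicates; progenitor-like cells of the coculture are highest for nuclear members (3.28%) and macrophage-like cells without coculture for mt- members (2.91%).

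The mt- level had another order. It was highest in macrophage-like cells without coculture at 2.91%, followed by cluster 12 without coculture at 2.29%, mature dendritic cell-like cells at 2.24% and B lineage-like cells at 2.20% in the coculture, and neutrophil-like cells without coculture at 2.14%. The other coculture classes lay between 1.08% in basophil or mast cell-like cells and 1.52% in T or NK cell-like cells. The makeup of these sums differed: mature dendritic cell-like cells had 12101 CPM of mt- ribosomal RNA and B lineage-like cells 9555 CPM, where macrophage-like cells without coculture had 5042 CPM of it beside 24030 CPM of mt- protein transcripts. For each nuclear UMI there were 0.285 to 0.640 mt- protein UMIs in the coculture classes and 0.909 to 1.16 in the 3 classes without coculture. Single clusters did overlap, since cluster 15 without coculture had 0.331 and cluster 4 of the coculture 0.759, and cluster 3 without coculture, with 30 cells, had 0.711.

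**Figure D5:**
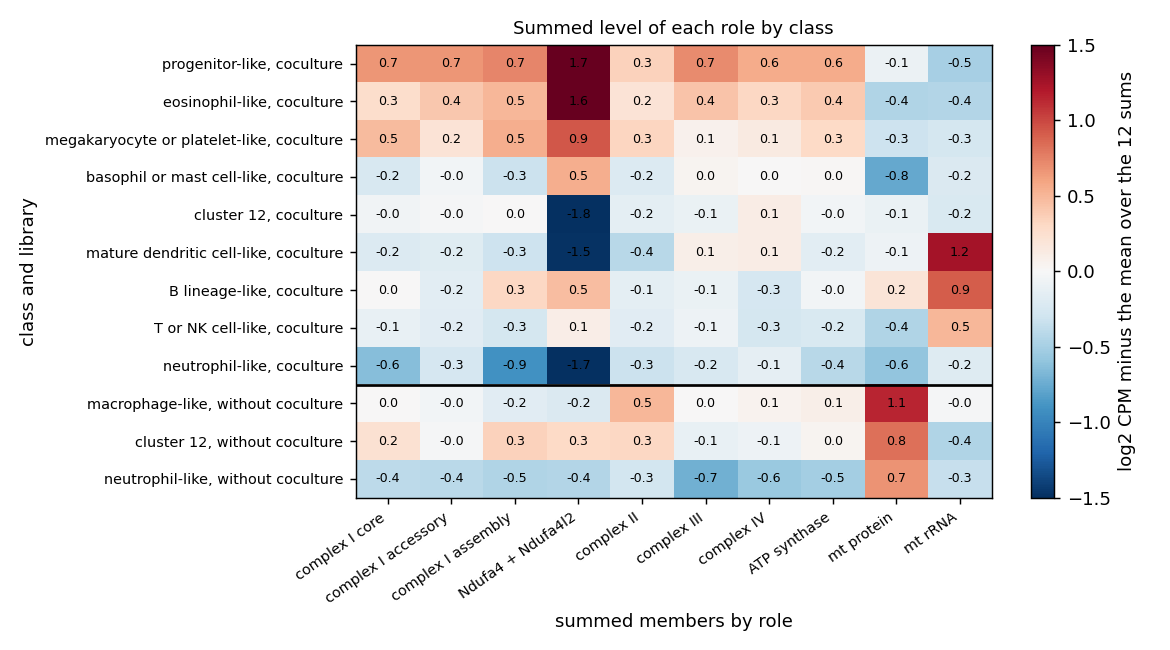
Summed CPM of each role in each class, as log2 CPM minus the mean over the 12 class sums of that role (red above, blue below; colours end at 1.5 either way, numbers give the value). Progenitor-like, eosinophil-like and megakaryocyte or platelet-like rows are above the mean for every nuclear role, and the neutrophil-like rows below it. For mt- protein transcripts the 3 rows without coculture are above the mean, as is the B lineage-like row of the coculture.

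The 5 nuclear members with the widest range over classes were Cox6b2, Cox6a2, Ndufa4, Ndufa12 and Ndufaf6. Cox6b2 had 112 CPM in progenitor-like, 99.3 CPM in megakaryocyte or platelet-like and 96.4 CPM in eosinophil-like cells of the coculture, 26.7 CPM in macrophage-like cells without coculture, and at most 10.7 CPM in B lineage-like, dendritic, neutrophil-like, lymphoid and cluster 12 sums. Ndufa4 had 932 CPM in progenitor-like and 863 CPM in eosinophil-like cells, against 103 CPM in mature dendritic cell-like, 80.5 CPM in cluster 12 and 78.9 CPM in neutrophil-like cells of the same library. Ndufa12 had 81.3 CPM in progenitor-like cells and 5.05 CPM in T or NK cell-like cells, and Ndufaf6 had 28.2 CPM in progenitor-like cells and 0 in T or NK cell-like cells. The last 2 values come from the shallowest class, with a median of 1910 UMIs a cell. Among 11088 genes outside the rule, the 5 whose level followed the nuclear sum most closely over the 12 class sums were Ufc1 (r = 0.969), Lonp1 (0.954), Plpp5 (0.953), Sec23b (0.948) and Ptrh2 (0.944).

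Neutrophil-like cells, named from a set of 14 neutrophil markers, were the one named class with over 50 cells in both libraries, 451 in the coculture and 1057 without. Nuclear members took 1.75% of their UMIs in the coculture and 1.49% without (log2 ratio 0.23, 0.22 to 0.24), and mt- members 1.17% in the coculture and 2.14% without (-0.87, -0.88 to -0.85). Different clusters made up the class: cluster 1, led by Arg1, Cxcl3, Retnlg and Nos2, gave 422 of the coculture cells, while cluster 17, led by Asprv1 and Hp, gave 639 and cluster 15 303 of those without coculture. Cluster 15, led by Slfn1 and Igf2bp2, rests on 3 of the markers: it had 636 CPM of Csf3r but 4758 CPM of S100a8, against 66987 CPM in cluster 17, and its counterpart was unnamed at clustering resolution 0.4 and at an mt- cap of 5%. Cluster 1 had 9 of the markers 2-fold above the other cells but only 1 among its top 10 genes. At resolution 0.4 a cluster led by Arg1, with 520 coculture cells and 18 without, was unnamed as well. Without cluster 15 the log2 ratios were 0.38 for nuclear and -1.03 for mt- members, an alternative added with the data seen. Without cluster 17 the log2 ratios were 0.097 for nuclear and -0.41 for mt- members. Cluster 15 had 2.12% nuclear and 1.00% mt- UMIs, and cluster 17 had 1.38% nuclear and 2.60% mt- UMIs, so the neutrophil-like clusters of that library differed among themselves. Median depth was 7579 UMIs a cell in the coculture and 4217 without.

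Of 80 nuclear members measured in neutrophil-like cells 9 were at least 1.5-fold higher in the coculture (11.3%), against a background of 18.6% among 7617 measured genes, and 6 were lower by that fold (7.5%), against 17.9%. Complex III and complex IV sums, the latter without Ndufa4, stood highest, with log2 ratios of 0.48 and 0.42. Uqcrh alone held 4269 of the 10042 coculture UMIs of the complex III sum. The median log2 ratio over the 8 complex III genes was 0.13, with Uqcrc1 lowest at -0.35, and that over the 12 measured complex IV genes was 0.38. Complex I core genes summed to -0.24 with 6 of 7 below 0, complex II to -0.06 and ATP synthase to 0.09. Cox7c had 588 CPM in the coculture and 282 CPM without (1.06). Uqcrh had 935 CPM in the coculture and 476 CPM without (0.97). Cox7a2l, lower over all cells, had 729 CPM in the coculture and 379 CPM without (0.94) in this class. At the low end Ndufaf7 had 7.01 CPM in the coculture and 23.2 CPM without (-1.73), and Sdhb 50.6 CPM in the coculture and 87.0 CPM without (-0.78). Ndufs8, a core subunit, had 38.1 CPM in the coculture and 64.1 CPM without (-0.75).

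The Ndufa4 and Cox4 families differed in this class by isoform. Ndufa4, higher in the coculture over all cells, had 78.9 CPM in neutrophil-like cells of the coculture and 212 CPM in those without, a log2 ratio of -1.43 (-1.60 to -1.26). Ndufa4l2 had 11.4 CPM (52 UMIs) in the coculture and 0.17 CPM (1 UMI) without, a log2 ratio of 6.05 with a counting interval of 3.51 to 11.38. Over all kept coculture cells 81.6% of the Ndufa4l2 UMIs lay in 10 cells, so an interval that treats UMIs as independent may be too narrow. Cox4i2 had 15.6 CPM (71 UMIs) in the coculture and 0.69 CPM (4 UMIs) without (4.497, 3.08 to 6.41), and Cox4i1 1080 CPM in the coculture and 814 CPM without (0.41). Hif1a, the hypoxia-inducible factor subunit, had 415 CPM in the coculture and 59.8 CPM without over the whole class (2.80). In cluster 12 Hif1a had 362 CPM in the coculture and 69.2 CPM without. Ndufa4l2 stood at 0.61 CPM and Cox4i2 at 3.07 CPM in the coculture cells of that cluster. Any link of Hif1a to these genes was not tested. Ndufa4 was low in each coculture cluster of the class (78.3 CPM in cluster 1 and 81.9 CPM in cluster 11) and higher in each one without coculture (248 CPM in cluster 11, 233 CPM in cluster 15 and 189 CPM in cluster 17). Ndufa4l2 was at 0 in cluster 11 of both libraries and in cluster 15 without coculture. Neither minor isoform was particular to neutrophil-like cells of the coculture. There Cox4i2 had 16.9 CPM in megakaryocyte or platelet-like and 16.6 CPM in basophil or mast cell-like cells. In the other coculture classes of at least 50 cells it had at most 5.45 CPM. Cluster 0, of the basophil or mast cell-like class, had 26.3 CPM of Cox4i2 and 15.9 CPM of Ndufa4l2.

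Genes that mark other cell types were also counted in these neutrophil-like cells, some above their level over the whole library. The monocyte markers summed to 6003 CPM in the coculture, against 2478 CPM over all its cells, and to 5976 CPM without coculture, with 0 and 1 of 11 at 0. The summed megakaryocyte or platelet markers had 1898 CPM in the coculture and 3.62 CPM without, with 3 and 5 of 10 markers at 0. The eosinophil markers had 232 CPM in the coculture and 62.8 CPM without, with 0 and 6 of 10 at 0. The macrophage markers had 1156 CPM in the coculture and 752 CPM without, with none of 14 at 0 in either. Neutrophil markers themselves summed to 70287 CPM in the coculture and 157459 CPM without. The part of these in the members' ratios was not tested.

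Clusters 3, 11 and 12 held 27 or more cells of each library, but whether these were like cells was not tested. The leading genes of cluster 12 parted largely by library at some settings. At the higher gene minimum, a cluster led by C1qa held 102 coculture cells and 9 without, and another led by Igha 2 and 132. With no mt- cap such clusters held 91 and 13, and 23 and 129. A mixed cluster remained at the lower and higher mt- caps (130 and 110, 100 and 140). The same held at the higher resolution (114 and 92) and without the deepest cells (93 and 141). In cluster 3, the progenitor-like cells, nuclear members had 3.28% in the coculture (104 cells) and 1.98% without (30 cells), a log2 ratio of 0.73, and mt- members 1.38% in the coculture and 1.70% without (-0.30). In cluster 11, neutrophil-like with granule genes such as Ltf, Camp and Ngp, nuclear members had 1.34% in the coculture (27 cells) and 1.29% without (114 cells), a log2 ratio of 0.06, and mt- members 1.02% in the coculture and 1.95% without (-0.94). In cluster 12 nuclear members had 2.11% in both (98 and 152 cells, log2 ratio 0.00), and mt- members 1.45% in the coculture and 2.29% without (-0.66). The mt- sum was thus lower in the coculture in each of the 3, but in cluster 3 its genes went both ways. There mt-Cytb had 2799 CPM in the coculture and 6174 CPM without, beside mt- sums of 13838 CPM and 17005 CPM. mt-Nd4 (-0.74) and mt-Nd2 (-0.31) also lay below 0 there, whereas mt-Rnr1 (0.92), mt-Co1 (0.70) and mt-Rnr2 (0.17) lay above. The nuclear sum stood apart from 0 beyond counting error in cluster 3 and, narrowly, in cluster 11 (interval 0.01 to 0.12). In opposite directions past 1.5-fold in these clusters, with intervals apart from 0, were 7 of 84 nuclear members (8.33%), against 6.35% of 7350 genes measured in more than 1 of them. mt-Cytb stood at -1.14, -1.87 and -1.29 in clusters 3, 11 and 12 and mt-Nd6 at 0.84, 2.05 and 2.07, the same signs as over all cells, while mt-Nd1 stood at 0.20, -1.29 and -1.06. mt-Nd5 stood at 0.83, 0.31 and 0.42, with the interval of cluster 11 reaching -0.07.

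Genes of neighbouring mitochondrial pathways were counted from lists outside the rule, against the same background of 23.0% higher and 21.8% lower. Of 13 measured genes of cytochrome c, carriers and electron entry, 4 were at least 1.5-fold higher and none lower, from Dhodh, the pyrimidine synthesis enzyme that feeds ubiquinone (12.9 CPM in the coculture, 6.26 CPM without, 1.04), to the ADP/ATP carrier Slc25a4 (-0.37). Of 26 assembly factors 4 were higher and none lower, from the copper chaperone Cox17 (151 CPM in the coculture, 72.9 CPM without, 1.05) to Uqcc3 (-0.30). Of 17 genes of pyruvate dehydrogenase and the citric acid cycle 2 were higher and 1 lower, from Suclg2 (27.4 CPM in the coculture, 9.86 CPM without, 1.47) to Ogdh (57.8 CPM in the coculture, 95.5 CPM without, -0.72).

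Genes of the mitochondrial ribosome had a median log2 ratio of 0.34 over 76 measured, with 12 at least 1.5-fold higher and 2 lower, from Mrps28 (1.07) to Mrps2 (-0.61). Protein import had 3 of 21 higher and none lower, with Timm17b highest (1.27) and Tomm6 lowest (-0.39). Of 10 genes of mitochondrial DNA upkeep and transcription 1 was higher, Tfam, which packages the genome and starts its transcription, at 37.3 CPM in the coculture and 20.7 CPM without (0.85), and none lower, Lrpprc, which stabilises mt- messenger RNA, being lowest (-0.51). Regulators split, with 3 of 13 higher and 4 lower: Gabpb1 had 25.7 CPM in the coculture and 10.8 CPM without (1.25), and the coactivator gene Ppargc1b 4.16 CPM in the coculture and 16.4 CPM without (-1.98). Of 17 genes of dynamics, inner membrane and antioxidant defence none were higher and 1 lower, Ucp2, at 277 CPM in the coculture and 542 CPM without (-0.97), with Prdx3 highest (0.41). Of 4 nuclear-retained RNAs 1 was higher, Xist, and 1 lower, Neat1, at 348 CPM in the coculture and 629 CPM without (-0.85).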

How the data were processed

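Droplet libraries reading transcript 3' ends were sequenced, per the labels' protocols, 1 for each group. The authors deposited whole-number UMI counts, not normalized, as 1 sparse matrix a library; the file headers give software version 3.1.0. Cell Ranger, bcl2fastq and build mm10 were used, per the submitters' processing notes. No source used here gives the annotation release or the rule for calling cells.

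Members and lists were chosen with earlier results of these data known. Kept barcodes had 500 genes or more and no more than 10% mt- UMIs. Scrublet called 5 coculture barcodes (of 3005) and 0 of 1817 without, too few to have worked, and none were removed, so droplets of several cells remain. Clustering in scanpy 1.11.5 used log values of cells scaled to 10000 UMIs, 2000 variable genes, 30 components, 15 neighbours and Leiden (igraph 0.11.9) at resolution 0.8. Each cluster took the name of its highest-scoring set among 15 where 3 or more of the set's markers stood 2-fold above the other cells and the top 10 genes by fold held more markers of that set than of any other, a tie being allowed at 1 or 0. The scoring was set with the data seen.

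UMIs were summed over cells and given as CPM. Log2 ratios are coculture over without coculture. CPM carries exact Poisson, ratios conditional binomial and shares exact binomial 95% intervals, which treat UMIs as independent. A gene at 0 took a floor of 3 UMIs in background medians. Alternative scalings used edgeR 4.0.16 and DESeq2 1.42.0 factors only, and the interval code was tested on simulated counts. Positions and 90-base stretches came from GENCODE M21 (GRCm38), where all 104 members were found, and promoters from RefSeq GRCm38.p6, where Atp5a1, Cox4i1, Cox4i2, Cox6a2, Cox6c, Ndufa2, Ndufa4l2, Ndufaf6, Ndufb9, Ndufs1, Sdhc, Uqcrb, Uqcrc2 and Uqcrq were among those not matched. The values of 1 member are not reported here; it is kept in the sums and counts.

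Genes were named by rule: the 8 highest and 8 lowest nuclear ratios over all cells, the 4 highest and lowest in neutrophil-like cells, the 5 widest over classes, mt- protein and rRNA genes, isoform families, each list's extremes and the 5 most alike genes; some others stand as examples of their complex, chosen after their values were seen. Alternatives covered caps, minima, scalings, cell weights and clusterings.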

Additional observations from a re-analysis of the deposited data

Results flagged for a closer look

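Among the members 7 nuclear genes differed between libraries in opposite directions in clusters held by both, past 1.5-fold each way and with counting intervals apart from 0. They were 8.33% of 84 nuclear members measured in more than 1 of clusters 3, 11 and 12, where 6.35% of 7350 genes met the same rule, a share near that background. Each was higher in the coculture in cluster 3, the progenitor-like cells, and lower in cluster 11 or 12. Ndufa4 had a log2 ratio of 1.02 in cluster 3 (932 CPM in the coculture, 458 CPM without), -1.60 in cluster 11 (81.9 CPM in the coculture, 248 CPM without) and -2.14 in cluster 12 (80.5 CPM in the coculture, 354 CPM without). In cluster 3 the log2 ratios were 1.00 for Ndufb6, 0.59 for Sdhb, 0.91 for Uqcrc1, 0.92 for Uqcrq, 0.91 for Atp5g1 and 0.69 for Atp5a1. In cluster 12 they were -0.62 for Ndufb6, -0.70 for Sdhb and -0.74 for Uqcrc1, and in cluster 11 they were -0.67 for Uqcrq, -1.15 for Atp5g1 and -0.61 for Atp5a1. The differences between clusters were not tested, since each library is 1 sample. The nuclear sum itself had a log2 ratio of 0.73 in cluster 3, which held 30 cells without coculture, and cluster 11 held 27 coculture cells.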

How the results depend on the processing

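The sums over all nuclear and all mt- members, in all cells and in neutrophil-like cells, kept their sign under the alternatives run, but most moved beyond their counting intervals. The complex I core sum over all cells changed sign, from 0.11 by library total to -0.03 under TMM and -0.01 under DESeq2. All are log2 ratios of the coculture over without coculture. Nuclear members over all cells (0.22) stood at 0.23 with no mt- cap, 0.076 under TMM, 0.094 under DESeq2 size factors, 0.20 with mt- UMIs left out of the total, 0.21 with each cell scaled to the same total and 0.33 without macrophage-like and eosinophil-like cells. Over all cells mt- members (-0.91) stood at -0.90 with a cap of 5%, -0.95 with 20%, -1.01 with none, -0.92 at 1000 genes, -0.84 without the 5% deepest cells, -1.06 under TMM, -1.04 under DESeq2, -0.93 with mt- UMIs out of the total, -0.59 with each cell scaled alike and -0.52 without macrophage-like and eosinophil-like cells. In neutrophil-like cells nuclear members (0.23) stood at 0.27 with a cap of 5%, 0.25 with 20%, 0.20 without the deepest cells, 0.21 under DESeq2, 0.22 with mt- UMIs out of the total, 0.16 with each cell scaled alike and 0.26 at clustering resolution 1.2. Their mt- members (-0.87) stood at -0.83 with a cap of 5%, -1.14 with 20%, -0.84 with none, -0.79 at 1000 genes, -0.89 without the deepest cells, -0.89 under DESeq2, -1.04 with each cell scaled alike and -0.76 at resolution 1.2. At resolution 0.4 no coculture cluster was called neutrophil-like, so no value was had. Of the counts, a fold of 2 left 2 higher (background 12.7%), a minimum of 50 CPM left 0 lower, and leaving out macrophage-like and eosinophil-like cells gave 2 lower. No share over all genes is given for the 50 CPM minimum or for the smaller set of cells, so those counts have no background beside them. Added after the data were seen were neutrophil-like cells of 3000 to 10000 UMIs (0.14 nuclear, -0.83 mt-), without cluster 11 (0.18 and -0.90), without cluster 15 (0.38 and -1.03), without cluster 17 (0.097 and -0.41), and the 28 most abundant genes left out of the total (0.12 and -1.02 over all cells, 0.14 and -0.96 in neutrophil-like cells). The cause of these moves was not tested. No paired analysis was possible because each group is 1 library. With 1 library a group, no value separates the groups from these libraries, and transcripts under about 10 CPM rest on few UMIs.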

Other observations

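Barcodes with at least 500 genes that the mt- cap removed were shallow and poor in nuclear members. There were 34 in the coculture and 243 without, with median depths of 1455 and 1362 UMIs. Of their UMIs outside the mt- genes, nuclear members took 1.00% in the coculture and 1.24% without, against 2.38% in kept coculture barcodes and 2.07% in those kept without coculture. Removed and kept barcodes were set apart by the mt- share itself and also differed in depth, and their cell makeup was not matched. Whether mt- and nuclear shares go together was therefore not tested. Over the 12 class sums of kept cells the nuclear and mt- levels had a Pearson r of -0.32 (Spearman rho -0.22).

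Suclg2, a succinyl-CoA ligase subunit, and Slc25a4, an ADP/ATP carrier, differed more within neutrophil-like cells than over all cells. Suclg2 had 15.1 CPM in the coculture and 2.41 CPM without in that class (log2 ratio 2.65), and Slc25a4 had 78.4 CPM in the coculture and 33.6 CPM without (1.22), the other sign from its ratio over all cells (-0.37). Tomm7, of the outer membrane import channel, had 377 CPM in the coculture and 172 CPM without (1.13). These 3 were chosen after their values were seen.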
